A study of Mus musculus and Ictidomys tridecemlineatus with 36 samples.

Results

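In developing retina of 13-lined ground squirrel (13LGS) and mouse, a sizeable part of the called H3K27ac peaks overlapped no peak of 4 other lists. These were the lists of H3K4me3, H3K4me1, Otx2 and Neurod1. The paper also names antibodies to H3K27me3 and H3K9me3, which the rule did not use. Another mark below therefore means a peak of these 4 lists. Members were chosen by the peak lists themselves. In each species, an H3K27ac peak was taken when it was under 4000 bp wide and shared not a single base with an H3K4me3, H3K4me1, Otx2 or Neurod1 peak. In 13LGS, 26876 of 93999 H3K27ac peaks met the rule (28.6%), and in mouse 24745 of 62930 did (39.3%). These are called H3K27ac-only peaks here. The numbers describe the rule and were not tested between species.

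The study profiled whole retina by CUT&RUN, in which an antibody directs a nuclease to cut the DNA around a histone mark or protein and the released fragments are sequenced. The 13LGS retinas were from postnatal day 5 (P5) and the mouse retinas from P2, and each biological replicate was a pool of retinas from more than 1 animal. Neither species received a treatment or carried a stated genetic change. The 13LGS lists for H3K27ac, H3K4me1 and H3K4me3 each came from 1 library, and the mouse lists from 2 libraries each. The Otx2 lists combined 6 libraries in 13LGS and 8 in mouse, raised with 2 antibodies, the Neurod1 lists 4 in each species, and the IgG controls 3 and 2. A list has 1 value per peak for all its libraries, so no value could be given per sample, no spread between animals could be computed, and the read depth is unknown. All p-values below take peaks as the unit. Neighbouring peaks are not independent, and the p-values describe these lists rather than variation between animals.

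Acetylation of histone H3 at lysine 27 is deposited by the acetyltransferases p300 and CBP and marks active promoters and enhancers. Active enhancers usually also carry H3K4me1, and active promoters carry H3K4me3. Otx2 and Neurod1 are transcription factors (TFs) that bind many enhancers of developing photoreceptors and bipolar cells. A peak with H3K27ac alone therefore falls outside the usual combinations. The other mark may be absent, or it may not have reached the peak threshold. The H3K27ac call may also itself be weak or background. A list of called peaks cannot tell these apart, and none of them was tested.

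The H3K27ac-only peaks of highest enrichment in mouse lay inside genes. The sequences below hold the summit and 60 bases on each side of it, from the plus strand of the GRCm38 reference. They are shown as examples of H3K27ac without the other marks. They are a selection of the tallest, and windows that reached into an annotated UTR were passed over, among them that of a peak in an exon of *Apba2*. Capitals mark matches on either strand to the 14 motifs described further on. The genes are *Nrf1*, a TF of mitochondrial and nuclear gene control, *Cep128*, a centriole protein, and *Ank2*, the membrane adaptor ankyrin-B.
Nrf1 intron, chr6:30111434-30111554: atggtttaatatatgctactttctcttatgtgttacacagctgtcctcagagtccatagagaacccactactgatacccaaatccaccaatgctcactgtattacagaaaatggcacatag
Cep128 intron, chr12:91262850-91262970: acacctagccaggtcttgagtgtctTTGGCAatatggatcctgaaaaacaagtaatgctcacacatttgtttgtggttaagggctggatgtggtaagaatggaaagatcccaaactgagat
Ank2 intron, chr3:127020170-127020290: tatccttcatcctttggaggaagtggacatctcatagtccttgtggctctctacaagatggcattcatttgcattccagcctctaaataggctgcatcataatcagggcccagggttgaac
Ank2 intron, chr3:127034031-127034151: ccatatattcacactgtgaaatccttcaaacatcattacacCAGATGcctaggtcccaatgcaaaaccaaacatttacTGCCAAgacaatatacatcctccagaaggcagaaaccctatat
Nrf1 intron, chr6:30127691-30127811: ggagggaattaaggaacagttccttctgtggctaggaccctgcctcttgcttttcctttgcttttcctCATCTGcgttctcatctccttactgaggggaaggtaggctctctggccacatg

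The *Nrf1* peak at chr6:30109707-30111655 had the highest fold enrichment over IgG of all mouse H3K27ac-only peaks, 8.40, and its −log10 q was 20.3. Its nearest other mark was an Otx2 peak 625 bp away, and the nearest H3K4me1 peak was 889 bp away. In *Cep128*, chr12:91262584-91263932 reached 6.80, and H3K4me1 began 938 bp away. The 2 *Ank2* peaks differed in isolation. The first, chr3:127020058-127020496, had a fold enrichment of 6.77 and was 15642 bp from the next H3K4me1 peak, whereas the second, chr3:127032637-127036022, reached 6.72 with H3K4me1 only 116 bp away. The second *Nrf1* peak, chr6:30127167-30129684, reached 6.70. Others among the 8 tallest were in *Apba2*, which encodes an adaptor of the amyloid precursor protein (7.05, chr7:64694656-64695254), and in an intron of *Kif1a*, a motor of axonal transport (6.55, chr1:93046348-93049716). Thus 7 of the 8 summits were intronic and 1 was exonic. Of the 5 printed windows, 2 held a Neurod1-type E-box, 2 an NFI core and none the Otx2 and Crx motif.

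The 13LGS peaks could be placed by coordinate on the HiC_Itri_2 assembly only, since no 13LGS annotation or genome sequence was used here. The highest fold enrichment was 7.93, at Itri9:117117872-117119455, a 1584 bp peak (−log10 q 22.7). An H3K4me3 peak lay 3991 bp from it, and the nearest H3K4me1 peak was 18282 bp away. The next, Itri3:2171966-2172374, reached 6.50 and was 218411 bp from any H3K4me1 peak, although a Neurod1 peak was found 4760 bp away. The other 6 of the 8 tallest had fold enrichments between 6.18 and 6.38, and the nearest other mark was 268 to 22256 bp away.

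Apart from these examples, the H3K27ac-only peaks were low and narrow. In 13LGS, the median fold enrichment was 2.90 (interquartile range 2.58 to 3.26) and the median width 320 bp, against 3.29 and 507 bp for 49405 H3K27ac peaks under 4000 bp that overlapped H3K4me1 but none of H3K4me3, Otx2 and Neurod1. The latter are the peaks most like the members and are called the H3K4me1 class here. In mouse, the medians were 3.13 (2.84 to 3.60) and 336 bp for the members, and 3.48 and 500 bp for the 26690 peaks of the H3K4me1 class. A fold enrichment of at least 5 was found for 86 members in 13LGS (0.320%) and 270 in mouse (1.09%), while the H3K4me1 class held 9.61% and 11.7% such peaks. These values come from the contrast that chose the members and were not tested.

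The same held for the significance of the peaks. Peaks whose −log10 q was 5 or more are called strong here. In 13LGS, 3571 H3K27ac-only peaks were strong (13.3%, 95% Wilson interval 12.9 to 13.7), whereas 39.7% of all H3K27ac peaks were. In mouse, 3022 were strong (12.2%, 11.8 to 12.6), against 32.6% of all H3K27ac peaks. In both species, most members were thus called closer to the authors' threshold than other H3K27ac peaks. The part of peak strength and width in membership was not tested. Members took up 10.4 Mb of the 13LGS assembly, 14.0% of all bases in its H3K27ac peaks, and 10.3 Mb of the mouse genome, 23.4% of them.

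**Figure D1:**
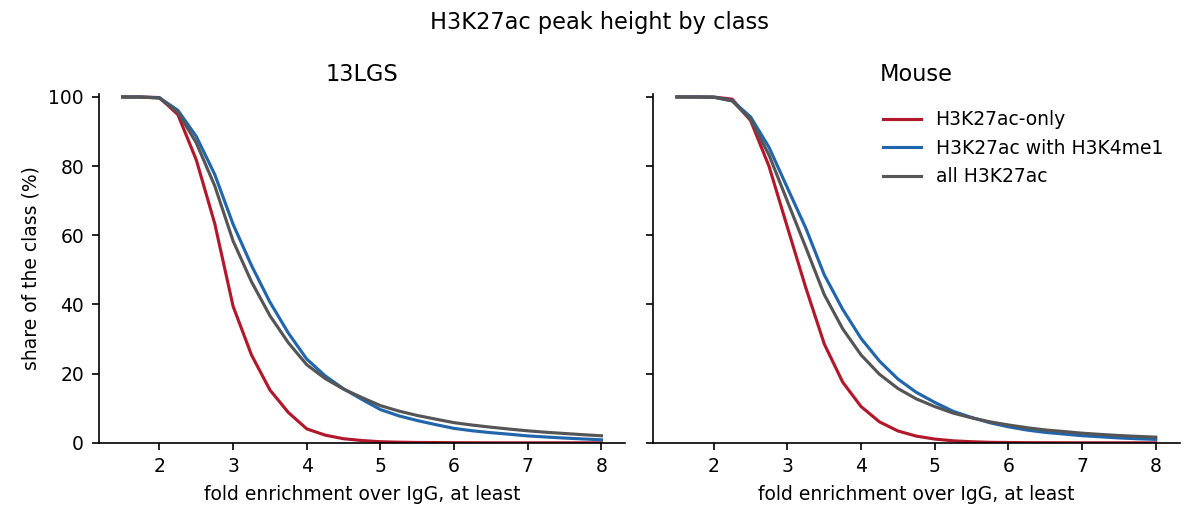
Share of H3K27ac peaks (y axis, %) whose fold enrichment over IgG is at least the value on the x axis, for H3K27ac-only peaks (red), H3K27ac peaks with H3K4me1 and no other mark (blue) and all H3K27ac peaks (grey), in 13LGS (left) and mouse (right). The red curve drops earlier in both species, to 4.03% at a fold enrichment of 4 in 13LGS and 10.5% in mouse, where the blue curve is at 24.2% and 30.2%.

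The width limit decided almost nothing. In 13LGS no unmarked H3K27ac peak reached 4000 bp, and the widest member measured 3555 bp (Itri3:28821320-28824874, fold enrichment 4.35). In mouse the widest member measured 3929 bp (chr12:75462717-75466645, 4.33), and 1 unmarked peak fell outside the limit, with 4405 bp (chr1:45816325-45820729, 5.58). At the other edge of the rule, 69 members in 13LGS and 62 in mouse lay within 10 bp of another mark, with median fold enrichments of 2.68 and 3.14. Just outside, 79 and 44 peaks under 4000 bp shared 1 to 10 bp with another mark, with medians of 2.72 and 3.01.

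The distance to other marks varied widely among the members. In 13LGS, the median distance to the nearest peak of the 4 other lists was 3636 bp (interquartile range 1001 to 11338), with 72.3% within 10 kb and 7450 members beyond it. In mouse the median was 6410 bp (1833 to 17231), with 61.2% within 10 kb and 9603 beyond it. The nearest mark was H3K4me1 for 96.8% of members in 13LGS and 96.6% in mouse, and H3K4me1 was also the longest list. Otx2 peaks were much further off, at a median of 44937 bp in 13LGS and 40514 bp in mouse, and H3K4me3 peaks lay at 109723 and 89401 bp. The most isolated mouse member was 764746 bp from any other mark. On small 13LGS scaffolds without any other peak, 32 members had no distance.

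Peak height hardly followed this distance. Mouse members up to 1 kb from another mark had a median fold enrichment of 3.17, and those over 50 kb away had 3.12. In 13LGS the corresponding medians were 2.90 and 2.94. The share of strong peaks was 14.0% among mouse members up to 1 kb away and 7.72% among the 1360 over 50 kb away, and 14.6% and 10.6% in 13LGS. Isolated members were therefore about as high as those beside another mark and fewer of them were strong, which is given here without a test.

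**Figure D2:**
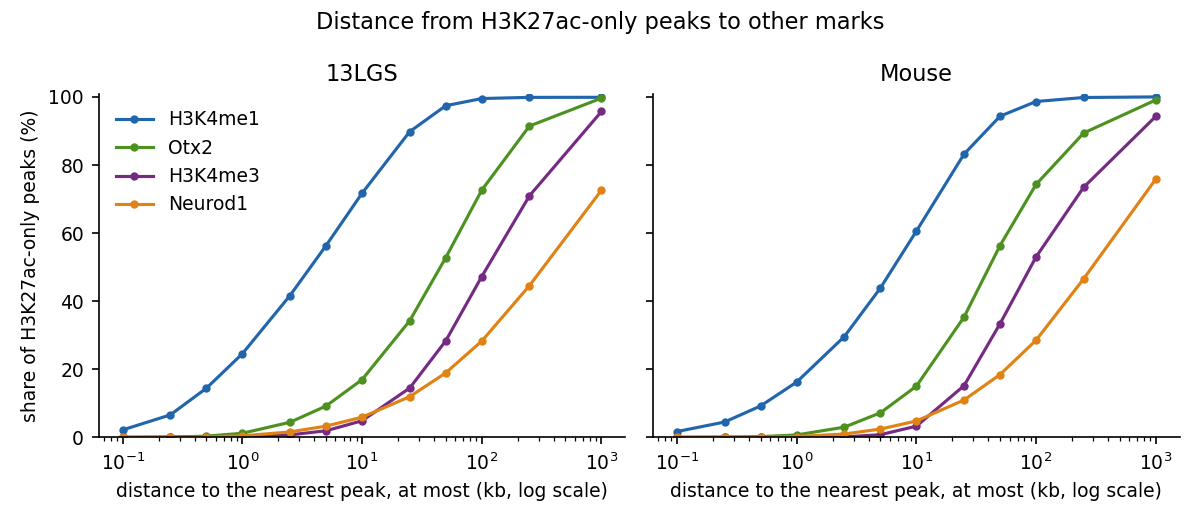
Share of H3K27ac-only peaks (y axis, %) with a peak of another target at most the given distance away (x axis, kb, log scale), for H3K4me1, Otx2, H3K4me3 and Neurod1 in 13LGS (left) and mouse (right). The H3K4me1 curve stands furthest to the left, with 24.6% of members within 1 kb in 13LGS and 16.3% in mouse, where Otx2 is at 1.22% and 0.727%.

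H3K27ac-only peaks tended to sit beside each other. The nearest H3K27ac neighbour was another member for 51.5% of members in 13LGS and 65.6% in mouse, while members were 28.6% and 39.3% of all H3K27ac peaks. Read along the genome, uninterrupted runs of 10 or more members held 6.86% of the members in 13LGS and 16.4% in mouse. The longest mouse run had 44 members in a row over 205 kb (chr3:126785633-126990316), across *Ank2* and *Camk2d*, which encodes a calcium/calmodulin-dependent kinase. Their fold enrichments ranged from 2.18 to 5.02, with a median of 3.63. The second had 41 members over 166 kb (chr6:112618856-112784390) across *Srgap3*, a regulator of neurite growth, and *Rad18*, a DNA repair ligase. In 13LGS the longest run had 24 members over 96.8 kb (Itri2:74994267-75091027), with fold enrichments of 2.19 to 4.84. Because the absence of H3K4me1 over a stretch defines the members there, runs follow in part from the rule. Members were also further from their nearest H3K27ac peak than the H3K4me1 class was. The median gaps were 2036.5 and 934 bp in 13LGS, and 2360 and 1285.5 bp in mouse.

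In fixed bins of 100 kb, the densest mouse bin held 36 H3K27ac-only peaks among 47 H3K27ac peaks (chr3:63700001-63800000). All 36 summits were inside *Plch1*, which encodes a phospholipase C. The next bins held 35 members in *Srgap3* (chr6:112700001-112800000) and, tied, 33 each in *Cep128* (chr12:91200001-91300000) and *Adgrv1* (chr13:81300001-81400000). In the *Adgrv1* bin only 1 other H3K27ac peak was called. The densest 13LGS bins held 34 (Itri1:163300001-163400000), 29 (Itri19:14900001-15000000) and 28 members (Itri6:146400001-146500000). Bins with at least 10 members numbered 409 in 13LGS and 417 in mouse and held 20.3% and 24.4% of the members. Bins with at least 10 peaks of the H3K4me1 class numbered 906 and 270 and held 25.3% and 13.8% of that class. Dense bins were thus not particular to the members, and in 13LGS they held a larger share of the H3K4me1 class.

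Most mouse H3K27ac-only peaks were intragenic. The summits of 17557 lay in the body of a protein-coding gene (71.0%, 95% Wilson interval 70.4 to 71.5), against 66.9% of all H3K27ac peaks and 64.7% of the H3K4me1 class (64.1 to 65.3). Introns held 63.7% of the members and exons 7.28% (7.0 to 7.6). For exons, the share was 6.78% over all H3K27ac peaks and 3.40% in the H3K4me1 class (3.2 to 3.6). The share of exonic summits was higher among members than in the H3K4me1 class on 19 of 19 autosomes, and the share in gene bodies on 16 of 19. Among strong peaks, 80.6% of members and 64.7% of the H3K4me1 class were in gene bodies. These positions are given as a description without a test.

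Few members were at promoters, which the rule sets in part, since it leaves out peaks with H3K4me3 from both classes. Over all H3K27ac peaks, 7.32% of summits were within 1 kb of a protein-coding TSS. A transcription start site (TSS) of a protein-coding transcript lay within 1 kb of the summit for 368 mouse members (1.49%, 1.34 to 1.65) and for 549 peaks of the H3K4me1 class (2.06%, 1.89 to 2.23), a difference of -0.57 percentage points (Fisher's exact test, two-sided, adjusted p = 2.4e-06 over 18 tests). The difference was small and depended on the setting. The rule also bears on it, because H3K4me1 separates the classes and is itself frequent near gene starts. With TSSs of all gene types the shares were 6.73% and 6.37% (exact test, adjusted p = 0.126), and among strong peaks they were 1.85% and 2.14% (adjusted p = 0.519). CpG-rich windows, with at least 50% GC and an observed to expected CpG ratio of at least 0.6, made up 2.70% over all H3K27ac peaks. They were rare in both classes, with 20 members (0.0808%) and 46 peaks (0.172%, exact test, adjusted p = 0.0077). The sign of this difference turned when an overlap of 250 bp was needed to leave a peak out (0.488% and 0.217%, exact test, adjusted p = 4.3e-07).

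Within genes, the H3K27ac-only peaks were shifted toward the 3′ end. This was examined after the values had been seen and is a description. In protein-coding genes of at least 20 kb, the share of members rose with each 10% of the gene length, from 1.75% in the first 10% to 17.6% in the last 10%, and the median position was 68.5% of the gene length (17257 summits). All H3K27ac peaks, members included, also leaned toward the 3′ end, with 7.69% in the first 10% and 12.6% in the last. Their median position was 57.5%. The H3K4me1 class was spread evenly after the first 10%, with 9.25% to 11.3% per step and a median position of 50.9% (16770 summits). The complete H3K4me1 list ran the opposite way, from 19.0% of its genic peaks in the first 10% to 7.28% in the last. Since members cannot overlap H3K4me1 and that list falls along the whole gene, part of the shift is set by the rule at every position. Past the midpoint of the gene lay 71.2% of the members, 57.8% of all H3K27ac peaks and 51.2% of the H3K4me1 class. Among strong peaks, the shares of the members and of the H3K4me1 class were 77.8% and 53.3%.

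The shift was seen in short and long genes. The median position of the members was 69.4% of the length in genes of 20 to 100 kb and 68.1% in genes of 100 kb or more, and that of the H3K4me1 class 49.7% and 51.4%. In 558 genes with at least 5 peaks of each class, the members' median lay further 3′ in 414 (74.2%). The rule bears on all these comparisons in the same way, so they do not add independent support. A transcript end within 1 kb was found for 5.08% of all mouse members (4.81 to 5.36) and 2.56% of the H3K4me1 class (2.38 to 2.76), with a higher share among members on 19 of 19 autosomes. Over all H3K27ac peaks the share was 3.88%.

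**Figure D3:**
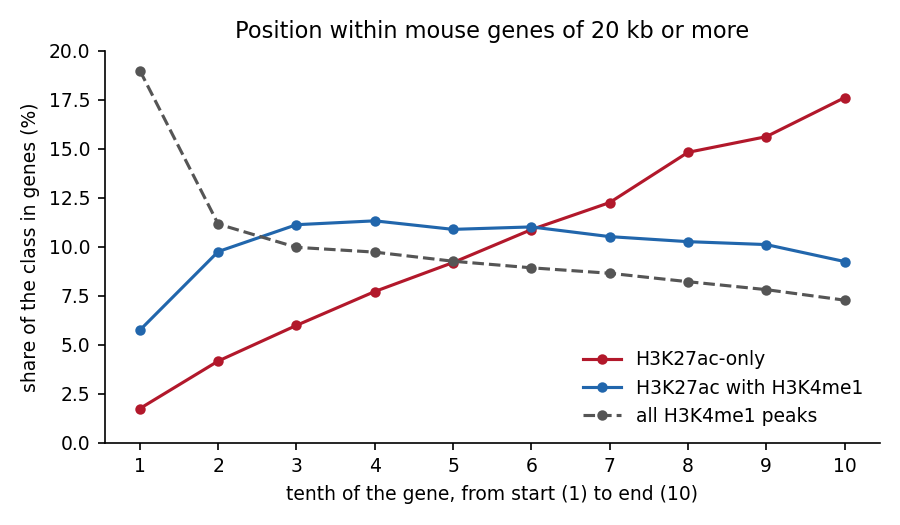
Share of genic summits (y axis, %) in each of 10 equal parts of mouse protein-coding genes of at least 20 kb, from the start of the gene (1) to its end (10), for H3K27ac-only peaks (red), H3K27ac peaks with H3K4me1 (blue) and the whole H3K4me1 list (grey, dashed). The red line climbs from 1.75% to 17.6%, whereas the blue line stays between 9.25% and 11.3% after the first part.

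Few genes held many of the members. Of 21866 protein-coding genes, 3830 contained at least 1 H3K27ac-only peak and 453 contained 10 or more. The latter held 35.7% of the mouse members and 21.6% of the H3K4me1 class, but they were picked by their members, which favours the first share. Picked by peaks of the H3K4me1 class instead, 419 genes contained 10 or more, a like number. These 453 genes were long, with a median of 199 kb against 17.4 kb for all, so a high count is partly a matter of length. *Adgrv1*, an adhesion receptor of the Usher complex at the photoreceptor cilium, held the most, with 120 members among 138 H3K27ac peaks over 538 kb (chr13:81095068-81633154). Their fold enrichments ranged from 2.15 to 5.74 with a median of 3.48, 8 had an exonic summit, and 28 were strong. *Cep128* followed with 88 of 113 peaks over 386 kb, and these 2 genes had the highest density among the 10 leading genes, 22.3 and 22.8 members per 100 kb.

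**Figure D4:**
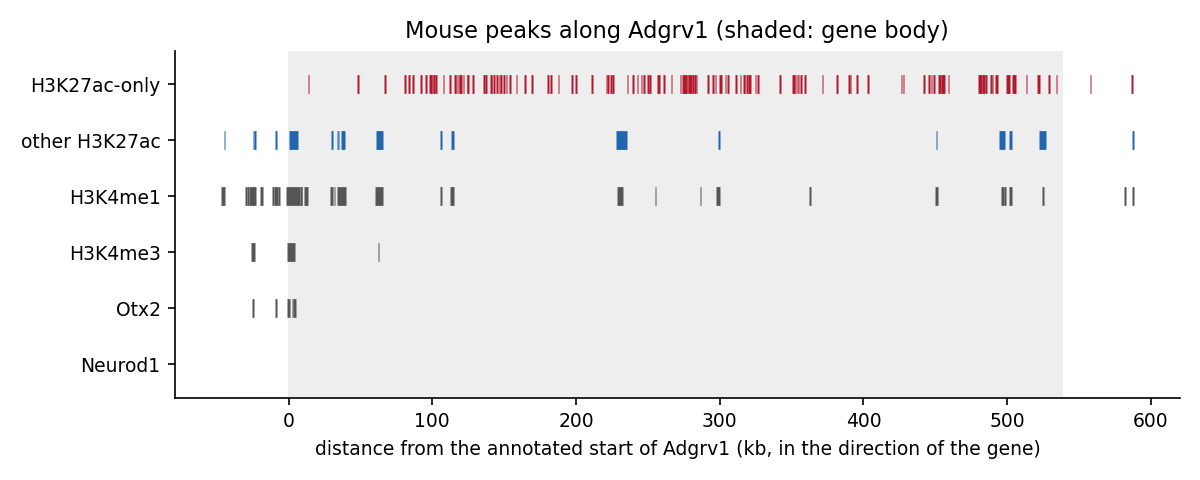
Peaks along *Adgrv1*, with distance from its annotated start in kb on the x axis and 1 row per list. Each bar is a peak, widened by 0.4 kb on each side to be visible, and the shaded area is the gene body. The 120 H3K27ac-only peaks cover the gene up to its end, the 18 other H3K27ac peaks and the 23 H3K4me1 peaks inside the gene are fewer, and the H3K4me3 and Otx2 peaks stand near the start or before it, except for 1 H3K4me3 peak further inside.

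The other leading genes encode synaptic, adhesion and polarity proteins and enzymes. *Ctnnd2*, the neuronal delta-catenin, held 81 members, 66.9% of its H3K27ac peaks, at a median position of 72.8% of the gene, where its 38 peaks of the H3K4me1 class had 45.6%. *Galnt13*, a glycosyltransferase, held 74 of 107, at 71.6% against 33.9%. *Adgrb3*, an adhesion receptor of synapses, held 68 of 88, and here the order was the opposite, 46.1% against 68.6%. The polarity gene *Pard3* held 66 of 117. *Ank3*, which encodes the axon initial segment adaptor ankyrin-G, held 66 members and 57 peaks of the H3K4me1 class, the most even mixture of the 10. *Mgat4c*, a glycosyltransferase gene, held 66 of 84, and *Med12l*, a paralogue of a Mediator subunit, 63 of 78. Members were further 3′ than the H3K4me1 class by their medians in 7 of these 10 genes.

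Genes with H3K27ac-only peaks nearly always had an H3K4me3 peak at their start. This was also examined after the values had been seen. All 10 leading genes had one within 1 kb of a protein-coding TSS. Over all genes, an H3K4me3 peak was at the start of 439 of the 453 genes with 10 or more members (96.9%, 94.9 to 98.2), of 95.2% with 5 to 9, of 89.3% with 1 to 4 and of 47.9% of the 18036 genes with none. In genes of 50 to 200 kb the shares were 98.2% for 10 or more members (221 of 225) and 56.1% for none (1195 of 2130). The H3K4me1 class showed a like order at that length, with 100% of 148 genes with 10 or more such peaks and 63.1% of genes with none.

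In 27 of the 629 genes with 8 or more members, no other H3K27ac peak was called within the gene body. *Pign*, which acts in the synthesis of membrane anchors, and *Rundc3b* held 13 each over 145 kb and 133 kb. *Mtr*, the methionine synthase gene, the tubulin cofactor gene *Tbcd* and *Specc1l* held 12 each, and *Ints4*, a subunit of the Integrator complex, 11. The phosphatase gene *Ptpn11* held 10. *Htt*, *Jak1*, *Rictor*, a subunit of the mTORC2 kinase complex, and *Trrap*, a scaffold of histone acetyltransferase complexes, held 8 each. An H3K4me3 peak was found at the start of 26 of these 27 genes. That is near the shares given above for genes with 5 to 9 members (95.2%) and with 10 or more (96.9%), so it does not set the 27 apart. Several of the 27 genes are expressed in most cell types.

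Near genes that define several retinal cell types, H3K27ac-only peaks were a smaller share of the H3K27ac peaks than over all genes. Each mouse peak was assigned to the nearest protein-coding TSS. Over all genes, members were 39.3% of assigned H3K27ac peaks, and 22.9% of genes had at least 1 (median 0 per gene). None of the 37 H3K27ac peaks assigned to the 7 proneural genes, such as *Atoh7* and *Olig2*, was a member. Bipolar genes (8 genes) had 1 of 23 and amacrine, horizontal and ganglion cell genes (11 genes) 1 of 25, in both cases the same *Isl1* peak. For progenitor and Müller glia genes, 18 of 178 were members (10.1%), in 7 of 16 genes (43.8%), a larger share of genes than over all. *Rlbp1*, a retinoid carrier of glia, had 5, and the TF genes *Nfib* and *Sox9* had 3 each. A low share means that most H3K27ac peaks near these genes overlapped another of the profiled marks and so were left out by the rule. It is not a separate trait of the members, and several lists held few peaks. The lists were chosen with results of these data known, and no list was tested.

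Photoreceptor genes were closer to the whole, with 34 members among 117 H3K27ac peaks (29.1%) in 5 of the 15 genes found of 16 listed. This number rested on *Thrb*, the thyroid hormone receptor gene of cones, with 20 members of 43 peaks. The rod TF gene *Nr2e3* had 4 of 10, *Prdm1* had 2 of 23 and *Otx2* 1 of 17. Among genes of other eye cells, those of pigment epithelium had 4 members of 6 peaks, all 4 nearest to *Ttr*, and vascular and immune genes had 11 of 49, led by the endothelial genes *Kdr* with 6 and *Cdh5* with 4. Lens and erythroid genes had 1 of 3, nearest to the crystallin gene *Crygs*. The share of such cells in the retinas was not tested.

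*Thrb* and *Rxrg*, a retinoid receptor gene of cones, are among the genes whose regulation the study compared between species. The body of mouse *Thrb* (chr14:17660261-18038090) held 37 H3K27ac peaks. Of these, 15 were H3K27ac-only, with fold enrichments of 2.52 to 4.07 (median 3.28), and 20 were of the H3K4me1 class, with 2.36 to 6.85 (median 3.48). Over all H3K27ac peaks, members were 39.3% in mouse and 28.6% in 13LGS. In 13LGS, 23 of the 55 accessible elements that the study assigned to *Thrb* overlapped an H3K27ac peak. Of these 23, only 4, all in the gene body, overlapped a member. The tallest, Itri2:182696770-182697353, reached 5.10 (−log10 q 10.2) and lay 421 bp from the nearest other mark. The others, at Itri2:182641462-182641871, Itri2:182698579-182698834 and Itri2:182699244-182699920, had fold enrichments of 2.92, 2.59 and 3.40. For *Rxrg*, 30 of 74 elements overlapped an H3K27ac peak and only 3 of the 30 a member. These members were at Itri9:101837021-101837303 (2.43), Itri9:101922900-101923459 (3.49) and Itri9:101977441-101977766 (3.23), the last in the gene body and 13364 bp from the nearest other mark. No member overlapped a listed mouse element of these genes or an element of *Mef2c* in either species, but few of those elements overlapped any H3K27ac peak, 3 for mouse *Rxrg*, 1 for 13LGS *Mef2c* and 0 for mouse *Thrb* and *Mef2c*.

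The X chromosome was poor in H3K27ac-only peaks. In mouse, 106 members (0.428% of members, 0.354 to 0.518) and 390 peaks of the H3K4me1 class (1.46%, 1.32 to 1.61) were on X, a ratio of 0.293 (Fisher's exact test, two-sided, adjusted p = 3.5e-34). Members were 14.3% of the H3K27ac peaks on X, and 26.6% (chromosome 19) to 45.0% (chromosome 5) on the autosomes. Among strong peaks, the shares on X were 0.165% and 1.32% (exact test, adjusted p = 2.0e-09). The sex of the pooled animals was not used here, and its part in the result was not tested. In 13LGS, the share was lowest on Itri10, with 80 members of 1076 H3K27ac peaks (7.43%), and highest on Itri18 (42.1%). Which 13LGS sequence is the X chromosome was not determined.

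The DNA under the summits differed from that of the H3K4me1 class in repeat content. In windows of 150 bp on each side of the mouse summits, more than 50% of the bases were repeat-masked in the reference for 2600 members (10.5%, 10.1 to 10.9) and 1148 peaks of the H3K4me1 class (4.30%, 4.06 to 4.55), a ratio of 2.44 (Fisher's exact test, two-sided, adjusted p = 6.6e-163). The share was higher among members on 19 of 19 autosomes, and over all H3K27ac peaks it was 6.30%. The difference held for strong peaks (8.54% and 3.70%) and for widths of 300 to 500 bp (10.6% and 4.73%). Reads of low mapping quality had been removed by the authors, and the part of mappability in this result was not tested. The median GC content was 44.9% in members (interquartile range 40.5 to 48.8) and 46.2% in the H3K4me1 class (41.9 to 50.2).

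Short TF motifs were searched as exact letters on both strands of the same windows. Of 14 motifs, 8 differed in share between members and the H3K4me1 class (adjusted p under 0.05), 7 being rarer and 1 more frequent in members. The Sox motif ACAAAG was found in 28.4% of members and 31.8% of the H3K4me1 class (exact test, adjusted p = 3.6e-16), the nuclear receptor core AGGTCA in 19.6% and 22.1% (adjusted p = 5.1e-12), and the homeobox motif TAATTA in 7.09% and 8.82% (adjusted p = 1.5e-12). The shares over all H3K27ac peaks were 29.7%, 20.6% and 7.52%. ACAAAG and AGGTCA were rarer among members on 19 of 19 autosomes. The GC-rich SP and KLF motif GGGCGG was found in 2.44% and 3.60% (exact test, adjusted p = 7.3e-14), and the CTCF-type AGGGGGC in 2.87% and 3.76% (adjusted p = 5.9e-08). Sox, nuclear receptor and homeobox TFs include regulators of retinal progenitors and photoreceptors. A match is a string of letters and not a bound site. The classes were not matched for GC content, repeats or exons, and the part of these in the motif differences was not tested.

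Smaller differences were found for the Neurod1-type E-box CAGATG (23.9% and 25.2%, exact test, adjusted p = 0.0010) and the NFI core TTGGCA (15.6% and 16.3%, adjusted p = 0.034). The A/T-rich Mef2 motif TATTTATA was the 1 more frequent in members (1.84% and 1.54%, exact test, adjusted p = 0.013). Several calls were lost among strong peaks, those of the Neurod1-type E-box (adjusted p = 0.771, exact test) and of the NFI (0.909), Mef2 (0.973), nuclear receptor (0.060), SP and KLF (0.065) and CTCF-type (0.123) motifs, while the Sox and homeobox motifs still passed. With widths of 300 to 500 bp, the Neurod1-type E-box, NFI and Mef2 motifs did not pass either, and the NFI and Mef2 motifs did not with windows of 100 bp on each side. The NFI core also did not pass without peaks up to 1 kb from another mark or with a fold enrichment of at least 2.5. The Otx2 and Crx motif TAATCC was found in 9.98% of members and 9.51% of the H3K4me1 class, a difference of 0.47 percentage points that did not pass the exact test (adjusted p = 0.099), and neither class overlaps an Otx2 peak by definition. It did pass among strong peaks, with a higher share in members by 1.85 percentage points (exact test, adjusted p = 0.0071). With the 250 bp overlap it also passed, by 0.81 points (exact test, adjusted p = 0.0029). The sign turned against all other peaks under 4000 bp without H3K4me3, which include Otx2-bound peaks. That difference was -0.46 points (exact test, adjusted p = 0.094). Over all members, the E-box CACGTG, AP-1 (TGANTCA), CREB (TGACGTCA), ETS (CCGGAAGT) and Rfx (GTTGCC) motifs did not pass, with differences between -0.17 and 0.15 percentage points. AP-1 passed with widths of 300 to 500 bp (exact test, adjusted p = 0.038) and CREB with the 250 bp overlap (0.033), both rarer in members. The largest motif difference over all members was that of ACAAAG, -3.39 percentage points, and among strong peaks it was -5.92.

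**Figure D5:**
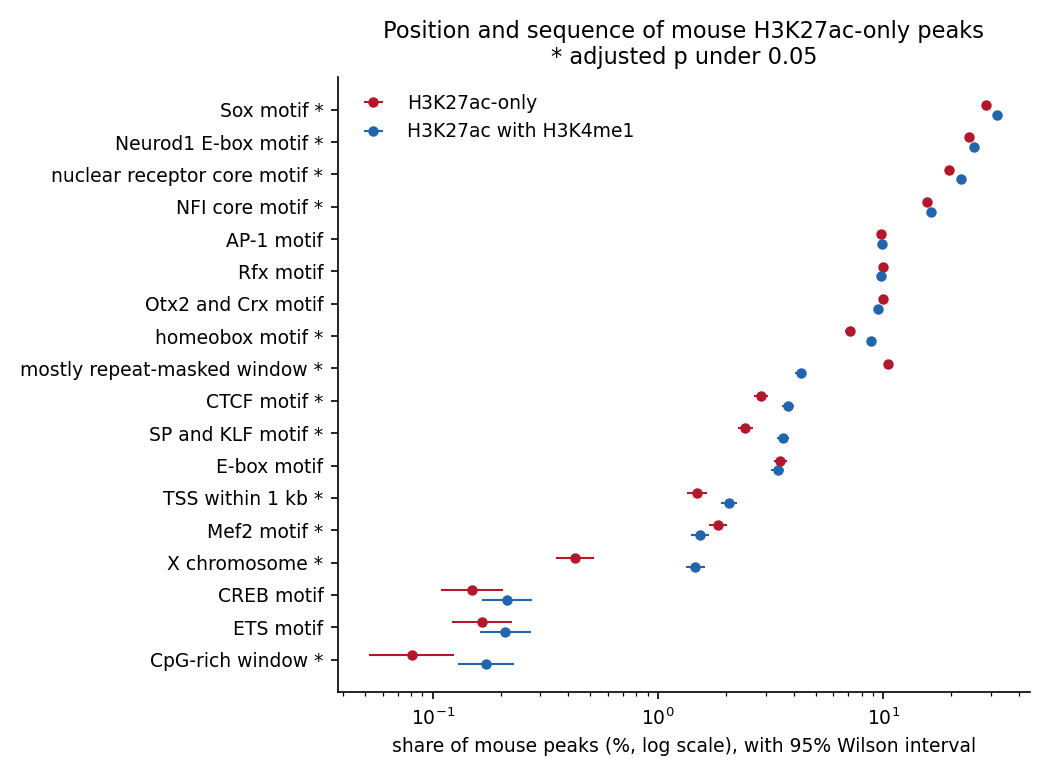
Share of mouse peaks (x axis, %, log scale) with each feature of position or sequence, for H3K27ac-only peaks (red) and H3K27ac peaks with H3K4me1 (blue), with 95% Wilson intervals as bars and asterisks for an adjusted p under 0.05. The widest gaps are those of the X chromosome (0.428% and 1.46%) and of repeat-masked windows (10.5% and 4.30%), and the motifs lie close together.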

How the data were processed

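The authors trimmed reads with cutadapt 3.5 and Trim Galore 0.6.4, aligned them with Bowtie2 to GRCm38 or HiC_Itri_2, removed reads of low mapping quality with SAMtools 1.12, removed duplicates by position, merged technical replicates and called peaks for each target with macs2, jointly across libraries against IgG, at a q-value of 0.05. Mouse blacklist regions were removed. The 10 deposited lists give for each peak a fold enrichment, which is a ratio of pooled signal to IgG, a −log10 q-value and a score set by the authors' peak caller. The deposited p-values were not used. Depth is not given in the lists, so Wilson intervals (95%) cover counting of peaks only.

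Peak positions and shares were then computed in Python 3.11.15. Overlap meant at least 1 bp. This code was checked against bedtools on simulated intervals with 0 differences. Mouse genes were those of GENCODE release M21, and repeats those masked in the GRCm38 reference. Each share was compared between members and the H3K4me1 class by Fisher's exact test (two-sided), and p-values were adjusted over the 18 tests (Benjamini-Hochberg). The members, gene lists and tests were chosen with earlier results of these data known. Named by rule were the 8 tallest members, the densest bins of 100 kb, the 10 genes with most members, up to 4 genes per list and members in listed elements of *Thrb*, *Rxrg* and *Mef2c*. The longest runs, the genes with no other H3K27ac peak and the comparisons of gene position and gene starts were chosen after their values were seen. The gene list spelled recoverin in a way that GENCODE does not hold, and this gene was not counted. The IgG controls entered only through the fold enrichment. A few items that these rules name are not reported here.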

Additional observations from a re-analysis of the deposited data

How the results depend on the processing

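With other lists limited to peaks whose −log10 q was 5 or more, the members were 33.8% of H3K27ac peaks in 13LGS and 43.7% in mouse; with an overlap of at least 250 bp needed, 39.2% and 47.5%; without peaks up to 1 kb from another mark, 21.5% and 32.9%; with H3K27ac peaks within 500 bp merged, 29.6% and 40.2%; and with a fold enrichment of at least 2.5, 26.97% in 13LGS. With H3K27ac limited to such strong peaks, the numbers fell to 3571 (9.56%) and 3022 (14.7%). The TSS difference was -0.12 points with the 250 bp overlap, -0.29 among strong peaks and 0.37 with TSSs of all gene types, none of which passed the exact test (adjusted p = 0.432, 0.519 and 0.126). The CpG-rich difference became 0.27 points with the 250 bp overlap, and did not pass among strong peaks (-0.064), widths of 300 to 500 bp (-0.12) or 100 bp on each side (-0.058). Among motifs, 3 rather than 8 passed among strong peaks, the Sox and homeobox motifs of the 8 and the Otx2 and Crx motif in addition. The nuclear receptor difference was then -2.01 points (-2.53 over all members) and that of Mef2 0.033 (0.30). The cause was not tested in any of these. The repeat difference kept its direction and passed under each alternative run. The X chromosome difference did so too, but it was run under fewer alternatives. These were members without peaks up to 1 kb from another mark, strong peaks, and comparison with all other peaks without H3K4me3. Shares in gene bodies, exons and at transcript ends, whose alternatives were chosen after seeing the data, kept their direction.

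Lists pool their libraries, so leaving out each replicate was not possible and depth limits could not be given. No paired analysis was possible because each list has no column per replicate.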
